A study of Rattus norvegicus with 19 samples.

Results

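Gene expression in rat motor cortex 7 days after a spinal cord lesion was set against that of control rats. The comparison used the 3 arrays labelled day 7 and the 4 arrays labelled control, which are 7 of the 19 arrays of a time course that also sampled days 1, 3, 14 and 49. All 31042 probe sets other than the array's own controls were included, the arrays being taken by their labels. Arrays titled D7w belong to day 49 by their labels and were not taken as day 7 arrays. All rats were adult female Fischer 344 rats, an inbred strain. Lesioned rats had the dorsal columns cut with a wire knife at the third cervical segment, and the tissue was the deep part of the motor cortex, where layer V lies. Whether control rats were sham-operated is not stated. The labels number the samples within each group without tying them to separate animals, so p-values reflect only the scatter of these samples, which may be technical.

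In the rat most corticospinal axons run in the dorsal columns, and their cell bodies are pyramidal neurons of layer V. A neuron whose axon is cut switches on injury transcription factors such as Atf3 and Jun, effectors of axon growth such as Sprr1a and Gap43, and neuropeptides such as galanin. That response is best known from peripheral neurons, and it is known to be weaker in neurons whose axons are cut far from the cell body. In uninjured cortex Vip and Npy are made by interneurons.

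No probe set passed an adjusted p of 0.05 in limma (0 of 31042, 0%), in the fit of 6 group means over all 19 arrays. An unadjusted p under 0.05 was reached by 275 probe sets (0.886%), of which 115 were higher at day 7 and 160 lower. Day14 replicate 2 and day49 replicate 2 stand apart from the other arrays and widen the common spread. Without them 1517 probe sets (4.89%) reached an unadjusted p under 0.05, and in a fit of the 7 arrays alone 1867 did (6.01%), with 0 calls in both. The median standard error of a difference was 0.13 on the log2 scale with 19 arrays and 0.079 with 17. Every difference below is therefore a value with its error, not a call. That error rests on a spread pooled over the 6 groups, so it does not measure the scatter of the day 7 arrays alone.

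The 7 arrays were closely alike, with median correlations of 0.994 to 0.997, the lowest in control replicate 3. Their median log2 signals were 5.57 to 5.60. Some genes described below, such as Il24, Galr1 and, in controls, Vip, lay well below those medians. Whether such low signals exceeded background was not tested. Control replicate 3 lay above the other 3 control arrays by more than 0.5 (log2) for 193 probe sets and below them for 627, against at most 70 and 21 for any other control array. The beta-actin 3' signal minus its 5' signal, which grows as RNA is degraded, was 0.877, 0.954, 1.09 and 0.968 in control replicates 1 to 4. It was 1.10, 1.09 and 1.14 in the day 7 arrays, all above the controls. The step was small, from 1.085 in control replicate 3 to 1.091 in day 7 replicate 2. The same measure for Gapdh overlapped, at 0.0628, 0.128 and 0.101 at day 7 against 0.1098 in control replicate 3. For hexokinase, control replicate 3, at 1.87, lay above the day 7 arrays, which ran from 1.42 to 1.51. The other controls, at 0.896 to 1.15, lay below them. Day14 replicate 2, outside this comparison, had the highest beta-actin and Gapdh values of the series, 2.24 and 3.18, with hexokinase at 1.09. Over all probe sets, day 7 minus control correlated by 0.248 with that array minus the other day 14 arrays. For day 7 replicates 1 to 3, each minus the control mean, the correlations were 0.214, 0.193 and 0.187. The part of RNA quality in the differences below was not tested further. Over all probe sets the median SD was 0.0724 among the day 7 arrays and 0.103 among the control arrays, or 0.0871 without control replicate 3. The day 7 arrays were thus not more scattered than the controls in general, and 31.3% of probe sets had a larger SD at day 7.

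The genes farthest above control were 3 neuropeptides, an injury transcription factor and a muscle LIM protein. These were Vip, Gal, Npy, Atf3 and Csrp3, the 5 genes of 14217 that were higher by more than 1 (log2), and Car3 was the 1 gene lower by more than 1. By more than 0.5, 10 genes were higher, 4 of them with the groups apart, and 26 lower, 15 of them with the groups apart. Of all probe sets, 887 (2.86%) had every day 7 array above every control array and 1301 (4.19%) had every one below. Across all genes 418 (2.94%) lay above in this way and 434 (3.05%) below. Vip, Gal, Npy and Atf3 were among the former and Csrp3 was not.

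Vip encodes vasoactive intestinal peptide, which signals through receptors that raise cyclic AMP. Its log2 signal was 3.97, 3.82, 3.77 and 4.05 in the control arrays and 4.08, 5.49 and 7.41 in day 7 replicates 1 to 3. The 1st of these lay at the edge of the controls, while the other two lay well above them. The difference was 1.76 ± 0.51 (SE, 95% interval 0.67 to 2.85), and 0.89 without day 7 replicate 3. The SD of Vip was 1.67 at day 7 and 0.13 in controls, so the pooled error understates the day 7 scatter. The same holds for Gal, Npy, Atf3 and Csrp3 below, with day 7 SDs of 0.81, 1.28, 0.98 and 0.89.

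Gal encodes galanin, a peptide known to be made by many neurons after axon injury. It gave 6.70, 6.52, 6.85 and 6.60 in controls and 7.15, 7.86 and 8.78 at day 7. All day 7 arrays lay above all controls, and replicate 1 did so by the smallest step. The difference was 1.26 ± 0.26 (SE, 95% interval 0.70 to 1.82), which had the smallest unadjusted p of the genes that were higher. It was 0.84 without day 7 replicate 3 and 1.65 without day 7 replicate 1, where limma gave the lowest adjusted p of any fit of this comparison, 0.071.

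Npy encodes neuropeptide Y, a peptide of cortical interneurons that injured sensory neurons also make. Controls read 6.53, 6.58, 6.23 and 6.03, and day 7 arrays 6.65, 7.01 and 9.03. Replicate 3 was far above the rest and replicate 1 only just above the highest control. The difference of 1.22 ± 0.41 (SE) was 0.49 without day 7 replicate 3.

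Atf3 is a stress-induced transcription factor that marks neurons with a cut axon. It read 5.88, 5.84, 5.86 and 6.11 in controls and 6.36, 6.83 and 8.24 at day 7. The groups did not overlap, and replicate 3 was again highest. The difference was 1.22 ± 0.38 (SE), and 0.67 when day 7 replicate 3 was left out.

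Csrp3, a LIM protein of striated muscle that is also made by injured sensory neurons, split the day 7 arrays. Controls read 4.69, 4.69, 4.62 and 4.80, and day 7 arrays 4.72, 6.06 and 6.42. Replicate 1 lay within the controls and the other two lay above them. The difference was 1.03 ± 0.38 (SE). In the same 3 arrays Myl1, a myosin light chain of skeletal muscle, read 4.33, 4.66 and 5.03. Other skeletal muscle genes did not rise in the same steps. Ckm read 5.18, 5.17 and 5.12, Myl11 4.03, 3.90 and 4.40, and Tnnc2 3.79, 3.53 and 4.03. In control replicate 2 Myl1 read 7.95 and Csrp3 4.69. The part of muscle tissue in the Csrp3 values was not tested.

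**Figure D1:**
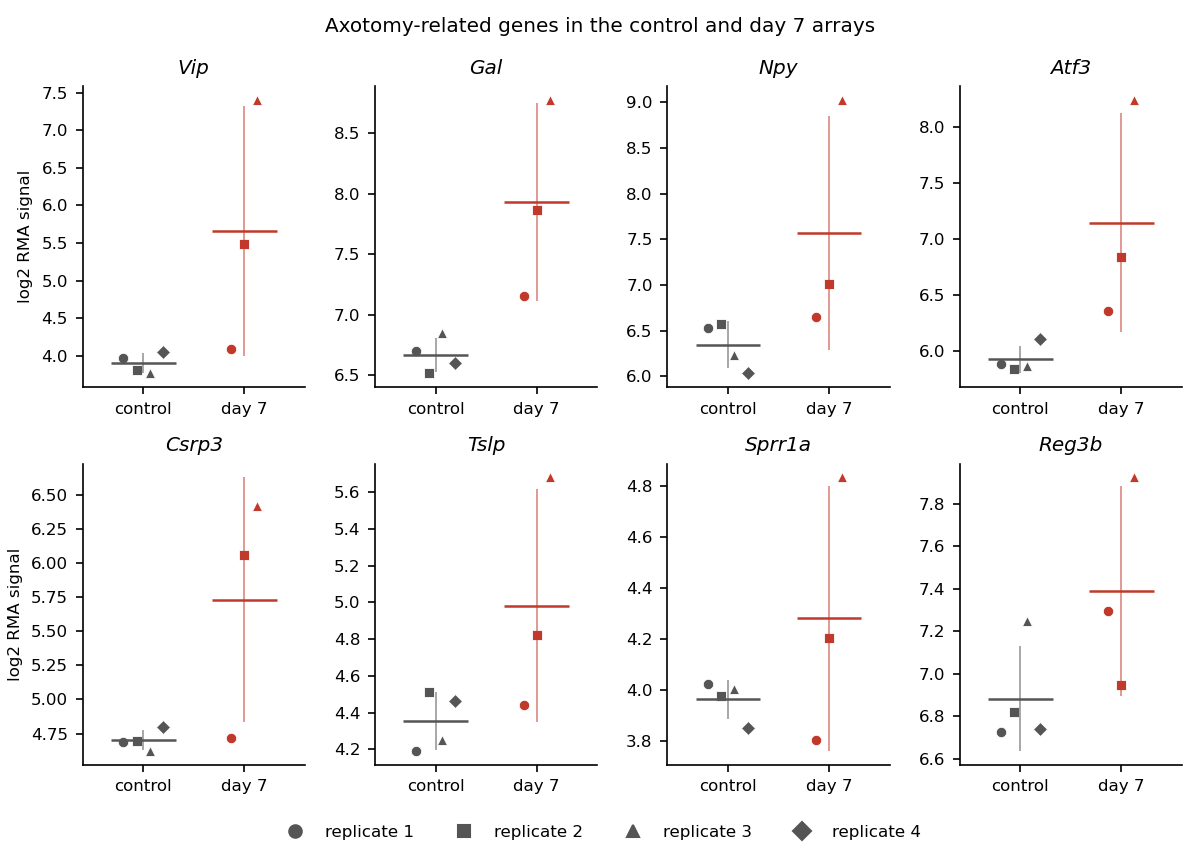
Log2 RMA signal (vertical axes) of 8 genes in the 4 control and 3 day 7 arrays, with a marker for each replicate number. Horizontal bars are group means and vertical lines 1 SD either side. Day 7 replicate 3 is the highest day 7 array for all 8 genes, and replicate 1 lies nearest the controls for all but Reg3b.

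The starts of these genes were read from RefSeq on the GRCr8 assembly, as 300 bases from 250 before to 50 after the annotated gene start. Those of Vip, Gal, Npy and Sprr1a are printed, and most of each sequence lies before the gene start. The array's own build was not used. Of 14 genes looked up, 10 had a window, and Atf3, Csrp3, Isg15 and Usp18 had none. Motifs were searched on both strands. The CRE core TGACGT, read by the cyclic AMP pathway, occurs in 7.94% of 33469 such windows, and the AP-1 motif TGANTCA, read by Jun and Fos proteins, in 7.33%. Capitals mark matches to either. Vip lies at chr1:44470230-44470529 (plus strand), Gal at chr1:210084523-210084822 (minus strand), Npy at chr4:80211861-80212160 (plus strand) and Sprr1a at chr2:180752576-180752875 (minus strand).
Vip: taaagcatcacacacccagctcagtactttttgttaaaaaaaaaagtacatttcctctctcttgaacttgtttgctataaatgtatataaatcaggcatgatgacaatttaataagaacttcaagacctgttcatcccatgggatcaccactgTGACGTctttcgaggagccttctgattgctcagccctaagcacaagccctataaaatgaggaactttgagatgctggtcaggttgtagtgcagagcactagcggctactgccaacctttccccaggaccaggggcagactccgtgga
Gal: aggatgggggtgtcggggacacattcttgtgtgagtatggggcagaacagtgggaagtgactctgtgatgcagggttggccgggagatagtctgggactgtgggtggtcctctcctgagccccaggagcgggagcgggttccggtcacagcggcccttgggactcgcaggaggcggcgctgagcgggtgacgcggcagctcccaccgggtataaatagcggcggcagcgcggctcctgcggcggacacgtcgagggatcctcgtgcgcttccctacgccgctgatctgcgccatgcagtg
Npy: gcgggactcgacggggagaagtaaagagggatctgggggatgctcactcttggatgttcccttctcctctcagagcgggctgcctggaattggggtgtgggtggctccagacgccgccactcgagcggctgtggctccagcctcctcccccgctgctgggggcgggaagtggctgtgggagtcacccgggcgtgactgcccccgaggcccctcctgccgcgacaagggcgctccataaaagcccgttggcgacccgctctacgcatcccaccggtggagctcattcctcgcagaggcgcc
Sprr1a: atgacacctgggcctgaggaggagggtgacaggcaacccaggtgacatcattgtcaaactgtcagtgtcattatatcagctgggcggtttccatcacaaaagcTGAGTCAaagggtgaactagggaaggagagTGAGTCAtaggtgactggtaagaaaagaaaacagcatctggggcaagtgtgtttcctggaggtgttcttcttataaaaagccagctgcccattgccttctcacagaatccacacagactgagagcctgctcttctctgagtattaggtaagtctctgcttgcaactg
The Vip window held 1 CRE core, beginning at -97 from the gene start, and no AP-1 motif. Sprr1a held 2 AP-1 motifs, the 1st beginning at -147, and no CRE core. Neither motif was found in the windows of Gal, Npy, Il24, Reg3b or Flrt3, of which the last 3 are not printed. A match is a description of these letters and shows no binding.

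The other neuropeptides were close to control. Of 26 peptide and granin genes measured, 12 were higher and 14 lower, with a median difference of 0.00, against 53.9% of all genes higher and a median of 0.01. Vip, Gal, Npy, Vgf and Cck lay above all controls (2.94% of all genes did) and Tac1, Scg2 and Calcb below them (3.05% did). Vgf, whose product is cut into several secreted peptides, was 0.27 ± 0.14 (SE) above control, at 7.92, 7.93 and 8.29 against 7.68 to 7.88, and 0.15 above without day 7 replicate 3. Cck, cholecystokinin, was 0.26 ± 0.20 (SE) above control. Sst, the somatostatin of another interneuron class, was 0.12 ± 0.10 (SE) below. Tac1, which encodes substance P, was 0.22 ± 0.15 (SE) below, with all 3 day 7 arrays between 11.58 and 11.64 and the controls between 11.70 and 11.91.

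Receptors for the peptides did not share their differences. Of 22 peptide receptor genes, 11 were higher and 11 lower, 3 lay above all controls (2.94% of all genes did) and 3 below (3.05% did). Those above were Ntsr2, a neurotensin receptor that was 0.19 ± 0.12 (SE) above control, Oprl1 and Sstr1, and those below were Galr1, Npy2r and Sstr2. Galr1, a galanin receptor, read 3.59, 3.59 and 3.55 at day 7 and 3.96, 3.84, 3.64 and 3.96 in controls, 0.27 ± 0.11 (SE) below. Npy2r, a neuropeptide Y receptor, was 0.19 ± 0.11 (SE) below. The VIP receptors Vipr1 and Vipr2 differed from control by -0.08 and 0.04. Vipr1's other probe set differed by 0.06.

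Among 22 injury transcription factors, 11 were higher and 11 lower, and the median difference was 0.01. Besides Atf3, Sox11 and Jun lay above all controls (2.94% of all genes did), and Atf2 lay below them (3.05% did). Sox11, a factor of growing and regenerating neurons, read 4.32, 4.34 and 4.61 against 4.24, 4.01, 4.13 and 4.16 in controls, a difference of 0.29 ± 0.15 (SE). Jun, which forms AP-1 with Fos proteins and pairs with Atf3, read 9.75, 9.82 and 9.85, against 9.74, 9.71, 9.33 and 9.57. That difference of 0.22 ± 0.12 (SE) was 0.13 without control replicate 3, the lowest array. Atf2, a relative of Atf3, was 0.68 ± 0.34 (SE) below control, at 6.22, 6.23 and 6.24 against 7.19, 6.84, 6.39 and 7.23. Its groups did not overlap. Stat3, which carries cytokine signals to the nucleus, was 0.24 ± 0.16 (SE) below with overlapping arrays. Its other probe set was 0.035 above control.

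Axotomy effectors, the genes of growth cones, cytoskeleton and secreted factors that injured neurons are known to make, were mostly above control by small amounts. Of 33 measured, 25 were higher (75.8%, against 53.9% of all genes) and the median difference was 0.09, against 0.01 for all genes. Il24, Kif22, Mmp16, Ecel1, Flrt3 and Arg1 lay above all controls, which is 6 of 33 beside 2.94% of all genes. Cd44 and Scg2 lay below all controls, which is 2 of 33 beside 3.05% of all genes. Day 7 replicate 3 was the highest of the 3 day 7 arrays for 27 of the 33 genes, against 39.3% of all genes (29.8% for replicate 1 and 30.9% for replicate 2). In the fit without day14 replicate 2 and day49 replicate 2, 11 of the 33 were higher at an unadjusted p under 0.05, against 1.93% of all genes, and 0 lower. The list was drawn up with earlier results of these data known, so the count describes it and is no independent evidence.

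Several effectors were highest in day 7 replicate 3. Il24, an interleukin of the interleukin-10 family, read 3.95, 3.78 and 3.99 against 3.67, 3.71, 3.64 and 3.59, 0.25 ± 0.07 (SE) above control. Its signals lay well below the array medians. Flrt3, a membrane protein of axon growth, read 7.00, 7.14 and 7.50 against 6.84, 6.90, 6.91 and 6.81, 0.35 ± 0.16 (SE) above. Arg1, arginase of polyamine synthesis, read 4.81, 4.96 and 5.29 against 4.61, 4.58, 4.77 and 4.66. These 3 genes had no overlap between groups, with replicate 3 highest in each. Ecel1, a peptidase of injured neurons, was 0.27 ± 0.19 (SE) above and Mmp16, a membrane metalloproteinase, 0.27 ± 0.24 (SE) above. Ecel1's other probe set differed by 0.004. Sprr1a, an actin-linked protein of regenerating axons, split the arrays: 3.80, 4.20 and 4.84 at day 7, against 3.85 to 4.02 in controls. Replicate 1 was the lowest of all 7 arrays and replicate 3 the highest, and the difference was 0.32 ± 0.19 (SE), or 0.04 without replicate 3. Reg3b, a secreted lectin made by injured neurons, read 7.29, 6.95 and 7.93 against 6.72, 6.82, 7.25 and 6.74, a difference of 0.51 ± 0.21 (SE) with overlap. Gap43, the growth-cone protein, was 0.06 ± 0.08 (SE) above control, at 11.50 to 11.69 against 11.50 to 11.58. Tslp, a cytokine of the interleukin-7 family that belongs to none of the lists, read 4.44, 4.82 and 5.68 against 4.19, 4.51, 4.25 and 4.46, a difference of 0.63 ± 0.21 (SE). Without day 7 replicate 3 the differences were 0.28 for Tslp, 0.24 for Reg3b, 0.23 for Arg1, 0.21 for Flrt3, 0.16 for Ecel1, 0.13 for Mmp16 and 0.01 for Gap43.

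The spread between the 3 day 7 arrays was widest in several of these genes and a few others. The 10 genes with the largest day 7 SD were Vip, Npy, Atf3, Zdhhc20, Csrp3, S100a9, Gal, Slitrk3, S100a8 and Tslp. Counting genes for which 1 array lay beyond all 4 controls by more than 0.5 (log2), day 7 replicate 1 had 2 above and 7 below, replicate 2 had 4 above and 3 below, and replicate 3 had 13 above and 4 below. The 4 above in replicate 2 were Vip, Csrp3, Gal and Atf3. In replicate 3 they were Vip, Npy, Atf3, Gal, Csrp3, Tslp, Sprr1a, Reg3b, Flrt3, S100a8, Arg1, Mmp16 and Sema6a. Of these 13, 11 belong to the lists of injury transcription factors, axotomy effectors or neuropeptides, which measured 22, 33 and 26 of 14217 genes. The lists were drawn up with earlier results of these data known, so the count describes replicate 3 and is no independent evidence. Replicate 1 had Slc3a1 and Cdh22 above, and neither is in those lists. Below control, replicate 3 had Slc7a5, Ccar1, Luzp2 and Gabra2. Each set against the other 3 control arrays, control replicates 1 to 4 had 2, 16, 85 and 19 genes above. They had 0, 1, 182 and 8 below.

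**Figure D2:**
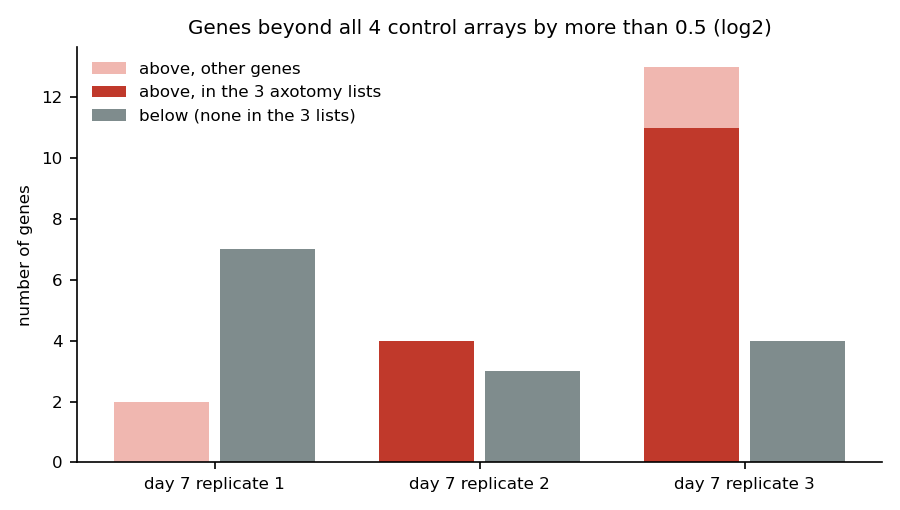
Number of genes (vertical axis) for which each day 7 array lay above or below all 4 control arrays by more than 0.5 on the log2 scale. Dark red marks genes of the injury transcription factor, axotomy effector and neuropeptide lists: 0 in replicate 1, 4 in replicate 2 and 11 in replicate 3. The lists were drawn up with earlier results of these data known.

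S100a8 and S100a9, the calprotectin subunits of neutrophils, were spread just as widely among controls. S100a8 read 7.13, 7.03, 6.33 and 5.31 in controls and 6.48, 6.57 and 7.68 at day 7. The difference was 0.46 ± 0.46 (SE), 0.07 without day 7 replicate 3 and 0.08 without control replicate 4. Its highest array was day 7 replicate 3, and the groups overlapped. The 16 lymphocyte, granulocyte and red cell genes measured, S100a8 and S100a9 among them, had a median difference of 0.02. Of these, 10 were higher (62.5%, against 53.9% of all genes) and 6 lower. Above all controls lay 0 (2.94% of all genes did) and below them 0 (3.05% did).

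Mean day 7 levels lay between those of days 3 and 14 in the time course of the peptides. At day 14 Vip read 7.14, 6.56 and 6.41, Gal 8.46, 8.71 and 8.11, and Npy 8.53, 7.81 and 7.76. All 9 values lay above day 7 replicates 1 and 2 of the same gene, and day 7 replicate 3 lay above the day 14 arrays for each. At day 3 Vip read 3.85, 4.43 and 3.84, close to control. The differences from day 3 to day 7 were 1.62 ± 0.55 (SE) for Vip, 0.88 ± 0.28 for Gal and 1.03 ± 0.44 for Npy. Atf3 followed another course, at 7.16, 7.17 and 8.64 on day 1, 6.82, 6.76 and 7.11 on day 3 and 7.43, 7.90 and 7.30 on day 14. Day 7 replicate 1, at 6.36, was below all of these and above the controls. By day 49 Atf3 read 5.84, 5.59 and 6.28, within or near the control range. The differences from control at each time share the control arrays.

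**Figure D3:**
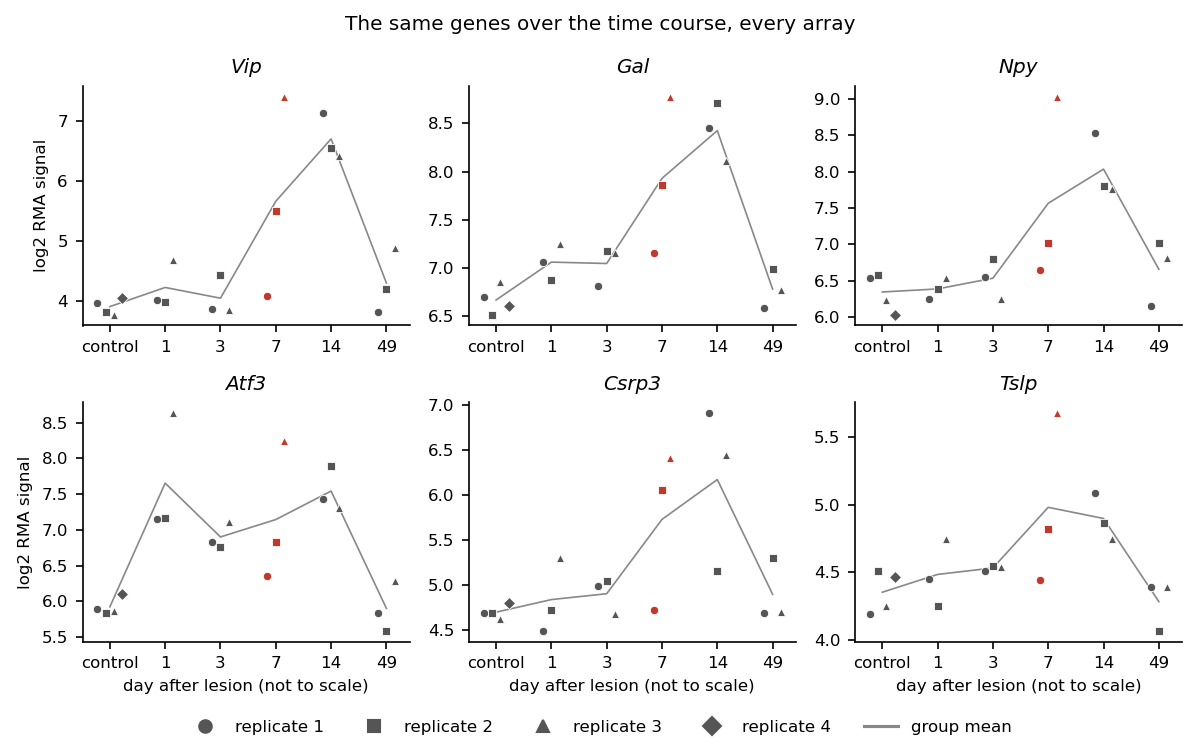
Log2 RMA signal (vertical axes) of 6 genes in every array of the 6 groups, with the group means joined by a line and the day 7 arrays in red. Times are evenly spaced and not to scale. The day 7 arrays span the distance between the control and day 14 levels.

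Against the neighbouring times limma called 0 probe sets as well (0%), by the same fit. Between day 3 and day 7, 174 probe sets (0.561%) had an unadjusted p under 0.05, 919 (2.96%) without the 2 arrays that stand apart and 2006 (6.46%) in a fit of those 6 arrays alone. In this comparison the 5 genes with the smallest p included Pik3r1, the regulatory subunit of phosphoinositide 3-kinase, at 5.19, 5.20 and 4.97 on day 7 against 6.15, 6.01 and 5.74 on day 3. Its control replicate 3 read 4.85, as low as the day 7 arrays. Prc1, which bundles microtubules in dividing cells, was 0.29 ± 0.09 (SE) above day 3. Between day 7 and day 14, 1676 probe sets (5.4%) reached it, with 1191 (3.84%) without the 2 arrays and 616 (1.98%) in a fit of these groups alone. There were 488 without day14 replicate 2 and 6202 and 6353 without the other day 14 arrays. The smallest p there belonged to Arsi, Ltbp2, Smim1, Tnfsf10 and Trpv4, each higher at day 14 by 0.36 to 0.59.

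Interferon-induced genes lay mostly below control at day 7. Of 26 measured, 23 were lower (88.5%, against 46.1% of all genes), with a median of -0.13, and 4 lay below all controls (3.05% of all genes did). Without the 2 arrays that stand apart, 8 were lower at an unadjusted p under 0.05 (1.79% of all genes were). Isg15, a ubiquitin-like protein made in response to interferon, read 6.38, 6.22 and 6.13 against 6.40, 6.76, 7.43 and 7.83, 0.86 ± 0.30 (SE) below. The day 7 arrays were close together while the controls were spread, with replicates 3 and 4 highest. Rsad2, the antiviral protein viperin, read 6.90, 6.73 and 7.00 against 7.23, 7.43, 7.47 and 7.84, 0.61 ± 0.22 (SE) below. Usp18, which removes Isg15 from proteins, was 0.66 ± 0.25 (SE) below, and Irf7, a regulator of interferon genes, 0.36 ± 0.18 (SE) below. For all 4 the groups did not overlap. Oas1a, which senses viral double-stranded RNA, was 0.31 ± 0.19 (SE) below with overlap, its controls running from 4.46 to 5.06. Its difference was -0.20 without control replicate 4. Over the list the median of each array's deviations from control was -0.09, -0.06, 0.02 and 0.21 in control replicates 1 to 4 and -0.16, -0.24 and -0.12 at day 7.

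The windows of Rsad2, Oas1a and Irf7 held, and those of Rsad2 and Oas1a are printed to show, the core of the interferon-stimulated response element (GAAA, any 2 bases, then GAAA), searched on both strands and found in 3.92% of all windows. Rsad2 lies at chr6:48788071-48788370 (minus strand) and Oas1a at chr12:41330216-41330515 (plus strand). Capitals mark the match, which in Rsad2 is on the opposite strand.
Rsad2: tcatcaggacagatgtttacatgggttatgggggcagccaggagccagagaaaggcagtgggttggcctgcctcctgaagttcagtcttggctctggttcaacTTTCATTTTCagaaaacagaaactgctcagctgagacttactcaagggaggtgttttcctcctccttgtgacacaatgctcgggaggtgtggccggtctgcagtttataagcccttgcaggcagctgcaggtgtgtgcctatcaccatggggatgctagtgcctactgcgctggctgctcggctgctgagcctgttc
Oas1a: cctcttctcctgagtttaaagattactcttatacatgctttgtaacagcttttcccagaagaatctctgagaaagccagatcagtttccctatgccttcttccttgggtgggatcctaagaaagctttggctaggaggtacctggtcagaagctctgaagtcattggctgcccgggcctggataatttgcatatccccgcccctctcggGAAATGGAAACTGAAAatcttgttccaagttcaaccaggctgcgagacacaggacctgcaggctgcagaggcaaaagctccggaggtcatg
Rsad2 held 1 match beginning at -147 from the gene start and Oas1a held 2 overlapping ones, the 1st at -41. Irf7 held 1 match, at -69.

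Antigen presentation genes went the same way in sign. Of 15 measured, 14 were lower (93.3%, against 46.1% of all genes) and the median was -0.15, and 2 lay below all controls (3.05% of all genes did). The class II molecules RT1-Da and RT1-Bb were 0.25 ± 0.24 and 0.29 ± 0.23 (SE) below control. Without day 7 replicate 1 their differences were -0.16 and -0.19. RT1-Bb's other probe set differed by 0.005. Cd74, the class II invariant chain, read 8.95, 9.10 and 9.33 against 9.32, 9.42, 9.17 and 9.37. Counting every probe set of these genes, the list median was -0.05.

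Markers of the meninges and choroid plexus were mostly below control as well. Of 29 measured, 22 were lower (75.9%, against 46.1% of all genes), with a median of -0.11, and 6 lay below all controls (3.05% of all genes did). Omd, the matrix proteoglycan osteomodulin, read 5.31, 5.45 and 5.67 against 6.41, 6.32, 5.97 and 6.03, 0.70 ± 0.31 (SE) below. Dcn, the proteoglycan decorin of meningeal fibroblasts, read 11.44, 11.45 and 11.56 against 11.98, 12.02, 11.61 and 11.81. All day 7 arrays lay below all controls for both, as for Ptgds, Myoc, Igfbp6 and Slc6a13. In bulk tissue fewer cells of a type and less RNA per cell cannot be told apart. The amount of meninges in each dissection was not measured, and its part in these values was not tested. Cldn1, a tight junction protein, was 0.54 ± 0.20 (SE) below, and Ccn3, a matricellular protein, 0.64 ± 0.20 (SE).

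**Figure D4:**
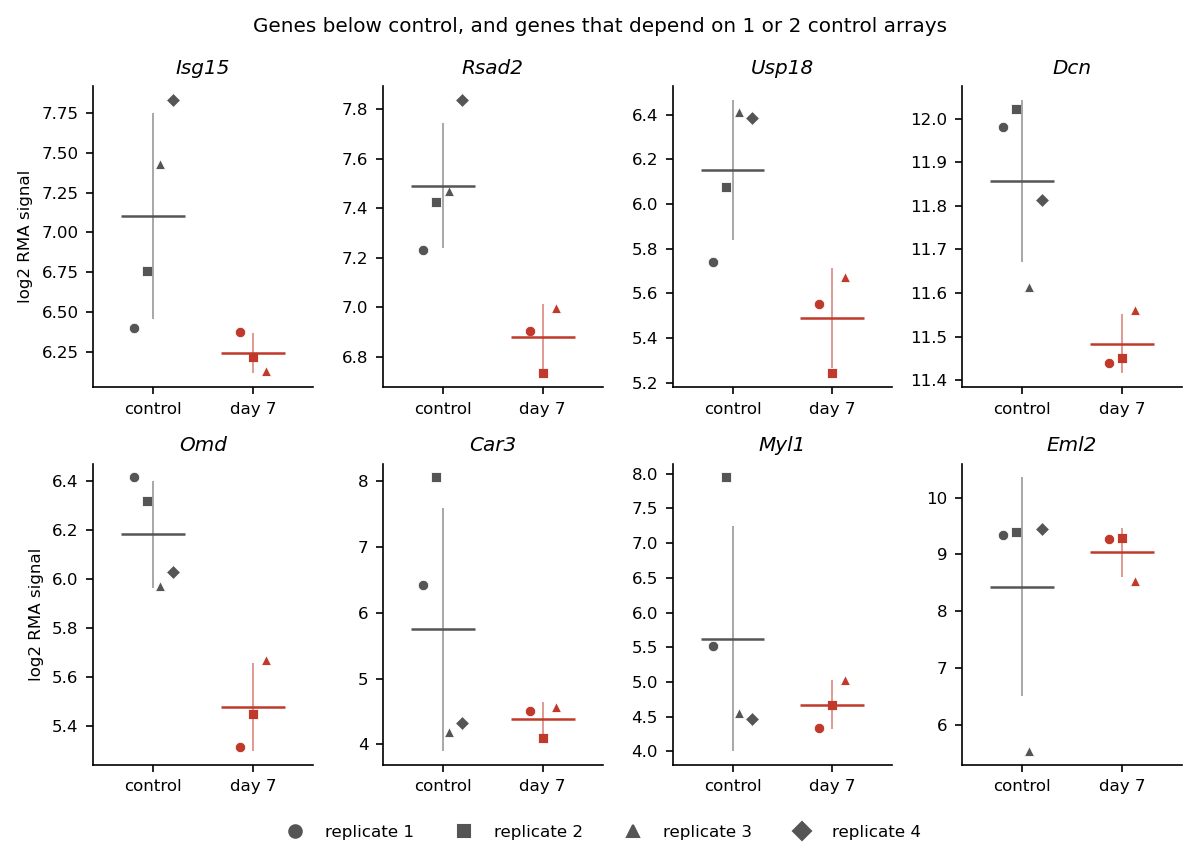
Log2 RMA signal (vertical axes) of 8 genes in the 4 control and 3 day 7 arrays, drawn as for the axotomy genes, with bars for the mean and lines for 1 SD. Isg15, Rsad2, Usp18, Dcn and Omd lie below all controls at day 7, while Car3 and Myl1 are high in control replicates 2 and 1 and Eml2 is low in control replicate 3.

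Several of the largest differences depended on 1 or 2 control arrays. Car3, a carbonic anhydrase of muscle and fat, read 6.42, 8.06, 4.20 and 4.32 in controls and 4.51, 4.10 and 4.57 at day 7. Myl1 read 5.52, 7.95, 4.56 and 4.47 against 4.33, 4.66 and 5.03. Control replicate 2 was the highest array for both and replicate 1 the next, with day 7 near the lower pair. Myl11, Tnnc2 and Ckm, further skeletal muscle genes, showed the same arrays high. Without control replicate 2 the differences were -0.58 for Car3, -0.18 for Myl1, -0.14 for Myl11, -0.27 for Tnnc2 and -0.07 for Ckm. Eml2, a microtubule protein, read 9.34, 9.40, 5.55 and 9.45 in controls and 9.28, 9.29 and 8.54 at day 7. Its difference of 0.60 ± 0.89 (SE) became -0.36 without control replicate 3, and Swi5 and Ube3al1 turned likewise to -0.17 and -0.03.

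Other genes with small unadjusted p were also below control. Cysltr2, a receptor for cysteinyl leukotrienes, read 4.01, 3.99 and 4.02 against 4.77, 4.49, 4.23 and 4.73, 0.55 ± 0.15 (SE) below. Against the same control arrays its difference was -0.48 at day 1, -0.36 at day 3, -0.41 at day 14 and -0.39 at day 49. Cpne3, a calcium-dependent membrane protein, was 0.66 ± 0.20 (SE) below, and Slc7a5, a transporter of large neutral amino acids, 0.61 ± 0.22 (SE). Chrna7, the alpha 7 nicotinic receptor subunit, read 4.95 to 5.02 against 5.18 to 5.42. For all 4 the groups were apart. Gsn, the actin-severing protein gelsolin, was 0.31 ± 0.10 (SE) below. Among genes that were higher, Gabra5, a GABA-A receptor subunit, read 6.58, 6.73 and 6.96 against 6.15, 6.10, 6.50 and 6.42, and Kcnk10, a potassium channel, 4.61, 4.67 and 4.55 against 4.28 to 4.39. Kcnk10's other probe set had the opposite sign. Snhg11, a long noncoding RNA of neurons, read 9.85, 9.74 and 9.73 against 9.32, 9.28, 9.55 and 9.44, 0.38 ± 0.11 (SE) above. Unlike the peptides, it was highest in day 7 replicate 1, and its 3 day 7 arrays lay close together.

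The layer V markers, which check the tissue, were near control. Of 22 measured, 15 were higher and 7 lower, with differences between -0.12 and 0.13. Bcl11b, a transcription factor of corticospinal neurons, was 0.13 ± 0.24 (SE) above control. Its 2 other probe sets differed by 0.05 ± 0.12 and -0.34 ± 0.14 (SE), so the probe sets of Bcl11b disagreed. Crym, a thyroid hormone binding protein of the same cells, was 0.09 ± 0.08 (SE) below. Nefl, the light neurofilament, differed by 0.00 and changed sign with the centring of the arrays. Reactive astrocyte genes had 13 of 22 higher and a median of 0.03, with replicate 3 the highest day 7 array for 18 of them. Gfap, the intermediate filament of astrocytes, read 5.11, 5.15 and 5.62 against 5.19, 5.47, 5.11 and 4.95, and was -0.05 without day 7 replicate 3. Microglia and complement genes had 11 of 28 higher and a median of -0.03.

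**Figure D5:**
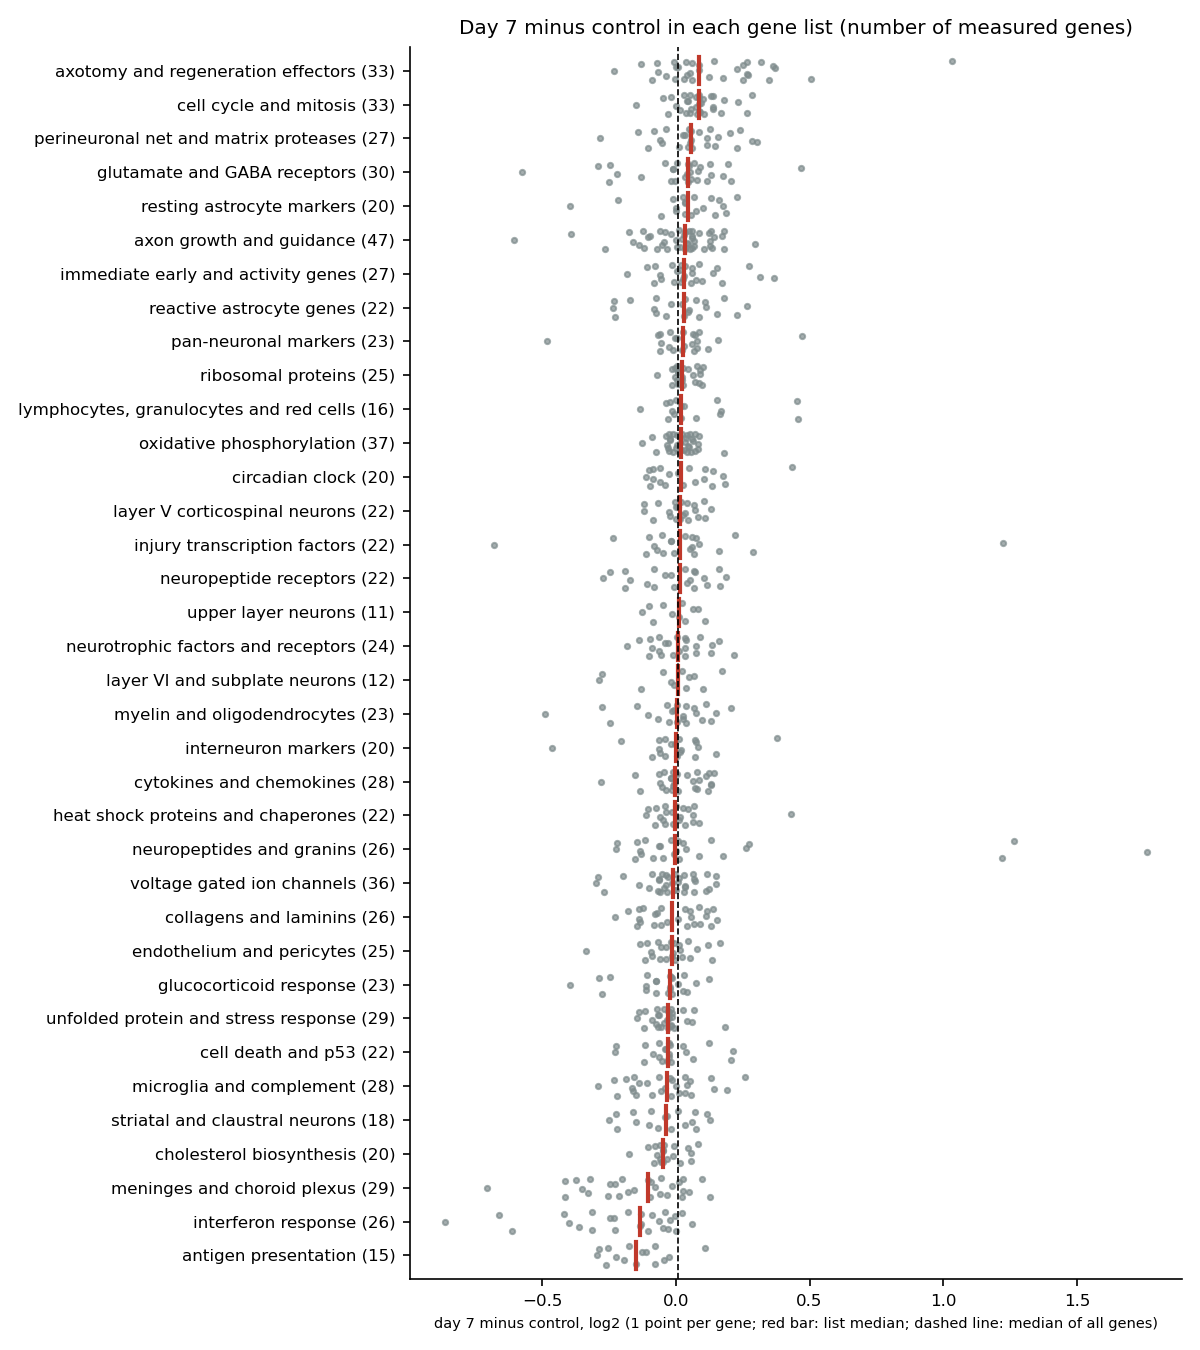
Day 7 minus control (horizontal axis, log2) of each measured gene in 36 gene lists, with 1 point per gene, a red bar at the list median and a dashed line at the median of all genes. The axotomy effectors have a median of 0.09 and the interferon, antigen presentation and meningeal lists medians of -0.13, -0.15 and -0.11.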

How the data were processed

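Deep motor cortex of adult female rats was measured on 19 Affymetrix arrays from 6 ug of total RNA each, 4 control and 3 at each of 5 times. The authors deposited log2 signals after RMA, per the submitters' processing notes. Its version and options are not given in the sources used here. Because RMA equalises the arrays' distributions, a change common to all transcripts is invisible. Scan dates were not used. The number of arrays limits the precision.

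Of 31099 probe sets, 57 array controls were left out and 31042 tested. Symbols came from the platform annotation, updated by gene ID for 20758 probe sets and by accession for 2. In all 20826 had 1 symbol, 436 several and 9780 none here, and 14217 genes were each represented by their probe set with the highest mean signal. Differences were tested with limma 3.58.1 in R 4.3.3, with 6 group means over 19 arrays, eBayes defaults, two-sided, and Benjamini-Hochberg adjustment over 31042 probe sets at 0.05. Residual degrees of freedom were 13 and prior 2.76. The fit was tested on simulated data. Gene lists (36, with 992 entries, 889 matched) are described by counts and medians, with no test.

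The members and lists were chosen with earlier results of these data known. Genes are named by a rule: the 15 smallest p in each direction as values, the 10 highest and 10 lowest differences, the 3 smallest p of each list, the 10 largest day 7 SDs, the 5 smallest p of the other comparisons, and Vip, Gal, Npy, Atf3, Jun, Sprr1a, Gap43, Gfap, Bcl11b, Crym, Csrp3 and Fos. All other genes named were chosen after their values were seen. Alternatives tried were a block on replicate number, centring of arrays, repeated quantile normalization, dropping the dimmer probe sets (below the median), trend and robust eBayes, array weights, a single probe set for each gene, only the groups compared, fits without day14 replicate 2 and day49 replicate 2, a minimum change of 0.5, all probe sets of a gene, and each replicate left out. Python 3.11.15 with matplotlib 3.10.9 made the plots.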

Additional observations from a re-analysis of the deposited data

Results flagged for a closer look

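In 9 of 115 genes checked, 1 control array stood apart from the other 3, its gap to the nearest being above Dixon's 95% value as a share of the group's range. Chance flags about 1 in 20 groups of genes chosen without regard to their values. Many of these genes were chosen by their values in the same arrays, so that rate cannot be set against the 9 flagged. Control replicate 3 was the array for 5 of them. It was low for Eml2 (gap share 0.972, signal 5.55), Swi5 (0.943), Ube3al1 (0.922), Pik3r1 (0.854) and Zdhhc20 (0.835). Control replicate 4 was low for Fos (0.899) and Fezf2 (0.877). Control replicate 2 was high for Gabrd (0.864) and low for Kif22 (0.842). Groups of 3, the day 7 arrays among them, were not checked this way.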

How the results depend on the processing

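limma called 0 probe sets in each of the 3 comparisons under every alternative run, at unadjusted counts of 167 to 545 for day 7 against control when 1 array of either group was left out. The 545 were without control replicate 3 and the 167 without day 7 replicate 1; without day14 replicate 2 there were 742, and with array weights 3212. Whether the replicate numbers pair the arrays is not settled. Deviations of like-numbered control and day 7 arrays correlated by 0.0935, 0.115 and 0.265 for replicates 1 to 3. Those of replicates 2 and 3 exceeded 0.1, the value above which arrays were taken to pair. Arrays of unlike number were not compared in this way. The replicate block gave 0 calls and 230 unadjusted. Of 1586 gene values under alternatives, 33 in 13 genes changed sign, most of them near 0. With 1 array left out, values ran from -0.357 to 0.941 for Eml2, -0.167 to 0.856 for Swi5, -0.0322 to 0.80 for Ube3al1, -0.0506 to 0.208 for Gfap, -0.116 to 0.756 for S100a9, -0.0595 to 0.27 for Serpina3n, -0.0952 to 0.161 for Aif1, -0.0492 to 0.0999 for Fezf2, -0.0243 to 0.102 for Vipr2, -0.019 to 0.0731 for Mog, -0.0098 to 0.0619 for Adcyap1, -0.0044 to 0.0744 for Etv1 and -0.0111 to 0.0179 for Nefl. With array weights S100a9 was -0.0134, Fezf2 -0.00462, Mog -0.0129, Vipr2 -0.0271 and Adcyap1 -0.0232, and with the replicate block S100a9 was -0.116, Fezf2 -0.0492, Mog -0.019 and Vipr2 -0.0243. Nefl was -0.00159 with arrays centred and -0.0125 after quantile normalization again. The cause was not tested. Of 396 list medians under alternatives 50 moved, among them meninges and choroid plexus (-0.19 without control replicate 3) and cell cycle and mitosis (0.05 without control replicate 4).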

Other observations

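Cell cycle genes were mostly above control by small amounts. Of 33 measured, 29 were higher (87.9%, against 53.9% of all genes) and the median difference was 0.09, and 6 lay above all controls (2.94% of all genes did). Cdk1, the kinase that starts mitosis, read 4.63, 4.57 and 4.84 against 4.38, 4.49, 4.56 and 4.14, 0.29 ± 0.11 (SE) above. Day 7 arrays lay above every control for it, by the least in replicate 2. E2f2, a transcription factor of the cell cycle, was 0.30 ± 0.11 (SE) above.

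Matrix and glial genes showed further small differences. Of 27 perineuronal net and matrix protease genes, 20 were higher (74.1%, against 53.9% of all genes) with a median of 0.06. Of these 27, 2 lay above all controls (2.94% of all genes did) and 1 below (3.05% did). Adamts4, a protease of the perineuronal net, read 5.89, 5.79 and 5.99 against 5.78, 5.50, 5.64 and 5.43, 0.30 ± 0.12 (SE) above with no overlap. Among 20 resting astrocyte markers 15 were higher (75%, against 53.9% of all genes), 3 lay above all controls and 2 below. Slc1a3, a glutamate transporter, was 0.23 ± 0.21 (SE) above control and Gjb6, a gap junction protein, 0.40 ± 0.35 (SE) below. For Slc1a3, 1 of its 2 other probe sets was opposite in sign. Of 20 interneuron markers 10 were higher and 10 lower, with a median of -0.0006. Above all controls lay 1 of the 20 (2.94% of all genes did) and below them 2 (3.05% did). Reln, the secreted protein reelin, was 0.38 ± 0.15 (SE) above and Calb1, a calcium buffer, 0.46 ± 0.26 (SE) below, both with no overlap.

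Lists of metabolic and stress genes leaned below control by less. Of 29 unfolded protein and stress response genes 24 were lower (82.8%, against 46.1% of all genes), with a median of -0.03. Of 20 cholesterol synthesis genes 15 were lower, with a median of -0.05, and of 23 glucocorticoid response genes 17 were, with a median of -0.02. Fkbp5, a glucocorticoid-induced chaperone, read 7.67, 7.64 and 7.59 against 7.88, 8.01, 8.09 and 7.66. Control replicate 4 lay among the day 7 arrays. Ribosomal protein genes were the other way in sign, 20 of 25 being higher (80%, against 53.9% of all genes) with a median of 0.02.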
